A study of Mus musculus with 10 samples.

Results

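The 10 genes described here encode the inducible proteasome and the machinery that loads its peptides onto MHC class I. They are the inducible catalytic subunits Psmb8, Psmb9 and Psmb10, the activator subunits Psme1 and Psme2, the transporter subunits Tap1 and Tap2, the loading factors Tapbp and Tapbpl, and the trimming peptidase Erap1. They were chosen by symbol, and Ensembl identifiers were matched to symbols through the GENCODE vM21 annotation. All 10 were found among the 17737 genes of the count table, and all 10 passed the filter on low counts that kept 13798 genes.

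RNA was sequenced from 10 tumors grown from B16-F10, a mouse melanoma cell line, under the skin of the right flank of C57BL/6 mice and collected on day 11. In 5 tumors, numbered 1 to 5, the line overexpressed IL-18 D69A, a form of the cytokine with alanine in place of aspartate at residue 69. In the other 5, numbered 2 to 6, the line overexpressed wild-type IL-18, written WT here. The labels do not say whether each line was a clone or a pool, or whether each tumor came from a mouse of its own; p-values here therefore cover only how these tumors vary. No tumor without overexpressed IL-18 was analysed here.

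The proteasome is a barrel of protein rings that cuts cytosolic proteins into peptides. Under interferon-gamma, Psmb8, Psmb9 and Psmb10 take the places of the constitutive catalytic subunits Psmb5, Psmb6 and Psmb7 in newly built particles, and the PA28 cap made of Psme1 and Psme2 opens the barrel's end. The TAP transporter carries the peptides into the endoplasmic reticulum, where Erap1 trims them and tapasin (Tapbp) and its relative TAPBPR (Tapbpl) help class I molecules to keep the tight-binding ones. The same genes are active in leukocytes, in part without added interferon, so a bulk tumor reads them from tumor cells and host cells together.

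All 10 genes were lower in D69A tumors than in WT tumors. Their log2 fold changes ran from -2.47 for Psmb9 to -0.83 for Erap1, with a median of -1.40, whereas the median over all 13798 genes tested was 0.002. Each of the 10 passed the quasi-likelihood test of edgeR, adjusted over all genes by the Benjamini-Hochberg method, with adjusted p-values between 0.000341 and 0.00136. In the same test 24.7% of all genes were lower in D69A tumors, 18.8% were higher and 43.5% passed in either direction. For each of the 10 genes every D69A tumor lay below every WT tumor, which held for 17.4% of all genes tested. In bulk tumors, fewer cells of a type and less RNA per cell cannot be told apart.

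The libraries held 34400949 to 37578722 counts in D69A tumors and 25904345 to 37556163 in WT tumors, the lowest being that of WT tumor 6. The overexpressed gene itself does not check the labels, since gene counts do not tell the D69A form from the wild type: Il18 stood at 27.3 ± 2.41 CPM in D69A tumors and 29.6 ± 2.56 CPM in WT tumors, and did not pass (edgeR quasi-likelihood adjusted p = 0.266). Levels are in CPM, the count of a gene relative to the total of its library, scaled by edgeR's trimmed mean of M values throughout. Leukocyte markers (Ptprc, Coro1a, Laptm5, Cd53, Itgb2) were lower for 5 of 5 genes, with a summed level of 114.1 to 270.0 CPM in D69A tumors and 374.0 to 993.0 CPM in WT tumors. T cell markers were lower for 4 of 4 genes (2.23 to 11.1 CPM in D69A tumors, 12.8 to 44.8 CPM in WT tumors), NK cell markers for 3 of 3 (1.20 to 6.42 CPM in D69A tumors, 13.4 to 31.9 CPM in WT tumors), dendritic cell markers for 3 of 3 (6.60 to 32.0 CPM in D69A tumors, 46.8 to 182.8 CPM in WT tumors) and macrophage markers for 3 of 4, Cd68 being the exception (272.9 to 363.3 CPM in D69A tumors, 343.9 to 718.2 CPM in WT tumors). Fibroblast markers were lower for 3 of 3 genes (88.4 to 360.1 CPM in D69A tumors, 673.8 to 1600.0 CPM in WT tumors) and endothelial markers for 3 of 3 (41.4 to 65.4 CPM in D69A tumors, 75.7 to 122.3 CPM in WT tumors). Of 3 neutrophil markers only Csf3r was tested, and it was lower (0.841 to 3.21 CPM in D69A tumors, 4.39 to 13.8 CPM in WT tumors). The other neutrophil markers and the B cell markers Cd79a and Ms4a1 were too low to be tested. Of 7 melanoma markers 4 were higher in D69A tumors (Tyr, Tyrp1, Dct, Pmel), with a sum of 23500 to 30090 CPM in D69A tumors and 16050 to 19820 CPM in WT tumors. Skeletal muscle markers were called for 0 of 5 genes and spread widely within each group (2.58 to 428.0 CPM in D69A tumors, 2.83 to 1215.0 CPM in WT tumors). The part of these cell types in the results on the 10 genes was not tested. The ratios to the leukocyte gene Ptprc given further on do not test it. They compare 2 genes in bulk RNA and do not tell fewer cells from less RNA per cell.

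**Figure D1:**
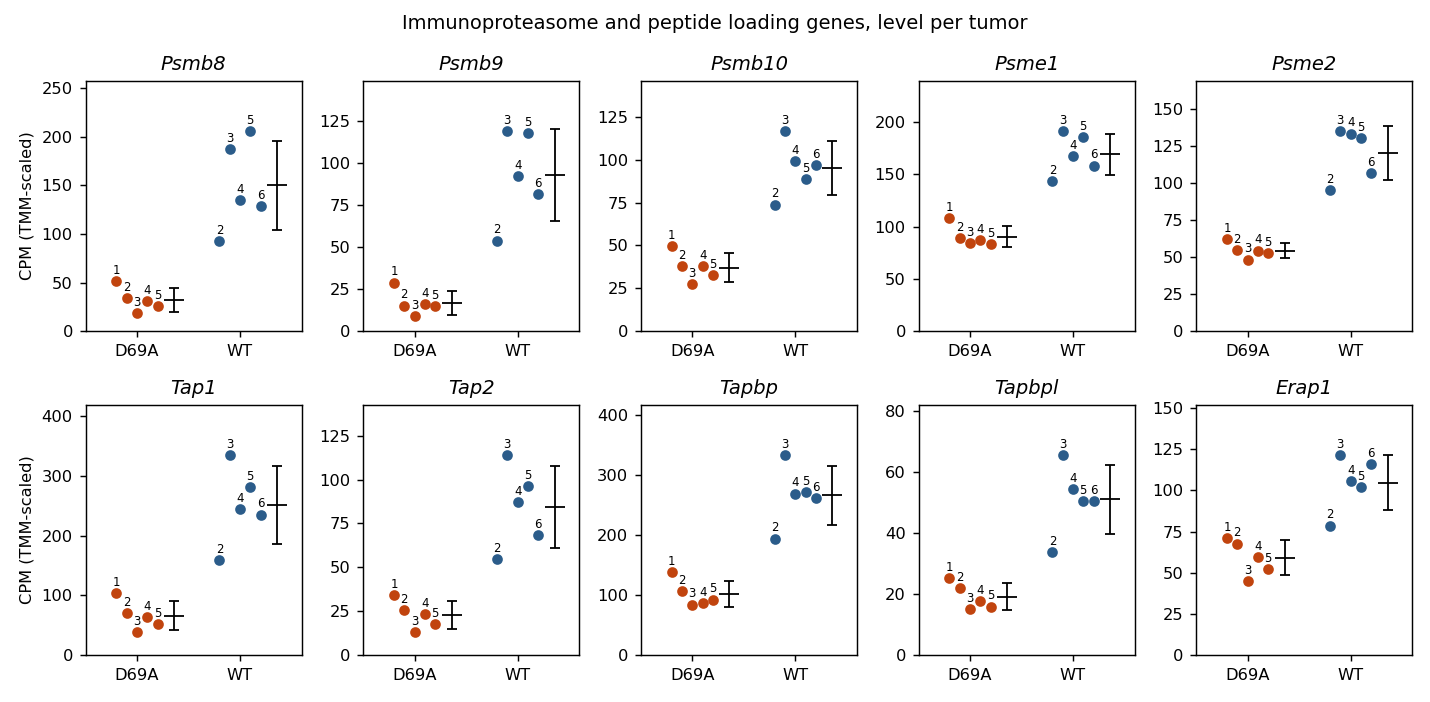
Level of each of the 10 genes in CPM, scaled by the trimmed mean of M values (TMM), on axes that start at 0, with 1 point per tumor marked by its number, D69A tumors left and WT tumors right in each panel; the black marks give the mean and SD of each group (n = 5). The 5 D69A points lie below the 5 WT points in every panel, with the narrowest gap for Erap1 (highest D69A tumor 71.1 CPM, lowest WT tumor 78.6 CPM).

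Psmb8 encodes the inducible chymotrypsin-like subunit that replaces Psmb5. It lies on mouse chromosome 17, at 34197721 to 34201454 on the plus strand in GRCm38, the assembly also called mm10. Its level was 51.6, 34.2, 18.7, 31.2 and 26.2 CPM in D69A tumors 1 to 5, against 92.7, 188, 135, 206 and 129 CPM in WT tumors 2 to 6. The highest D69A tumor was tumor 1 and the lowest WT tumor was tumor 2, and the groups did not overlap. The means were 32.4 ± 12.3 CPM in D69A tumors and 150.0 ± 46.2 CPM in WT tumors (SD, n = 5 each), a 4.63-fold lower level (log2 fold change -2.21, SE 0.28, edgeR quasi-likelihood adjusted p = 0.000516).

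Psmb8 was the only one of 8 of these genes with a promoter sequence at hand to hold the palindrome of the interferon-gamma-activated site, TTCNNNGAA, within the 250 bases before and 50 after the RefSeq start site. The 60 bases around it, shown because the other 7 promoters lack these letters, come from RefSeq's mouse annotation (GRCm38.p6, chr17:34198075-34198134, plus strand), with the palindrome in capitals.
Psmb8: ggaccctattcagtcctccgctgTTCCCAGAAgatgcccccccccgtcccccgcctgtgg
The fixed letters of TTCNNNGAA read the same on both strands, but the bases at N here do not. Of 10754 tested genes with a promoter sequence, 8.45% held the pattern in at least 1 promoter. It is given as a match of letters only.

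Psmb9 encodes the inducible subunit that replaces Psmb6 and removes its caspase-like activity (chromosome 17, 34181987 to 34187764, minus strand). Its level was 28.95, 15.3, 8.92, 16.1 and 14.7 CPM in D69A tumors 1 to 5, against 54.0, 119, 92.4, 118 and 81.5 CPM in WT tumors 2 to 6. This was the widest separation of the 10 genes, with the lowest WT tumor 1.87 times the highest D69A tumor. Psmb9 averaged 16.8 ± 7.36 CPM in D69A tumors and 93.0 ± 27.2 CPM in WT tumors (SD, n = 5 each), 5.53-fold lower (log2 fold change -2.47, SE 0.30, edgeR quasi-likelihood adjusted p = 0.000472).

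Psmb10 encodes the inducible subunit that replaces Psmb7, the trypsin-like site, and lies apart from the others on chromosome 8 (105935735 to 105938444, minus strand). Its level was 49.7, 37.8, 27.4, 38.0 and 32.7 CPM in D69A tumors 1 to 5, against 73.8, 117, 99.0, 88.9 and 97.0 CPM in WT tumors 2 to 6. No D69A tumor reached the lowest WT tumor, and the range within each group was narrower than for the other inducible subunits. The means of 37.1 ± 8.26 CPM in D69A tumors and 95.1 ± 15.6 CPM in WT tumors (SD, n = 5 each) differed 2.56-fold (log2 fold change -1.36, SE 0.16, edgeR quasi-likelihood adjusted p = 0.000447).

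The constitutive subunits they replace did not pass the test. Psmb5 stood at 116 ± 5.55 CPM in D69A tumors and 109.5 ± 11.4 CPM in WT tumors (log2 fold change 0.09, SE 0.07, edgeR quasi-likelihood adjusted p = 0.366). Psmb6 stood at 134 ± 7.56 CPM in D69A tumors and 139 ± 8.01 CPM in WT tumors, and Psmb7 at 146 ± 11.8 CPM in D69A tumors and 141 ± 7.23 CPM in WT tumors, with log2 fold changes of -0.05 (SE 0.06) and 0.05 (SE 0.06). Within tumors, the ratio of the inducible to the replaced subunit was lower in D69A tumors for all 3 pairs. The log2 ratio of Psmb8 to Psmb5 was -1.92 ± 0.59 in D69A tumors and 0.40 ± 0.61 in WT tumors, a 5.0-fold lower ratio. For Psmb9 over Psmb6 it was -3.09 ± 0.59 in D69A tumors and -0.63 ± 0.50 in WT tumors (5.51-fold lower), and for Psmb10 over Psmb7 it was -2.0 ± 0.35 in D69A tumors and -0.58 ± 0.26 in WT tumors (2.67-fold lower). All 3 ratios separated the groups without overlap and gave p = 0.00794 by exact permutation of the tumors (two-sided), which is as low as the 252 ways of dividing 10 tumors allow, and 0.0138 after Benjamini-Hochberg adjustment over 26 ratios.

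Set per length of exon sequence, Psmb8 made up 6.91 ± 2.66% of the sum of Psmb8 and Psmb5 in D69A tumors and 26.7 ± 8.07% in WT tumors. Psmb9 made up 5.98 ± 2.37% of its pair in D69A tumors and 25.3 ± 6.35% in WT tumors, and Psmb10 made up 33.6 ± 5.41% of its pair in D69A tumors and 57.2 ± 4.34% in WT tumors. Psmb10 thus held the largest share of its pair in both groups. These shares depend on the length taken for each gene, and Psmb8's share was 11.6% in D69A tumors and 38.8% in WT tumors with the longest transcript in place of the merged exons. With the principal transcript, Psmb10's share was 18.3% in D69A tumors and 37.2% in WT tumors, below the WT share of Psmb8 at 42.5%. The shares are of mRNA and do not measure assembled particles.

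**Figure D2:**
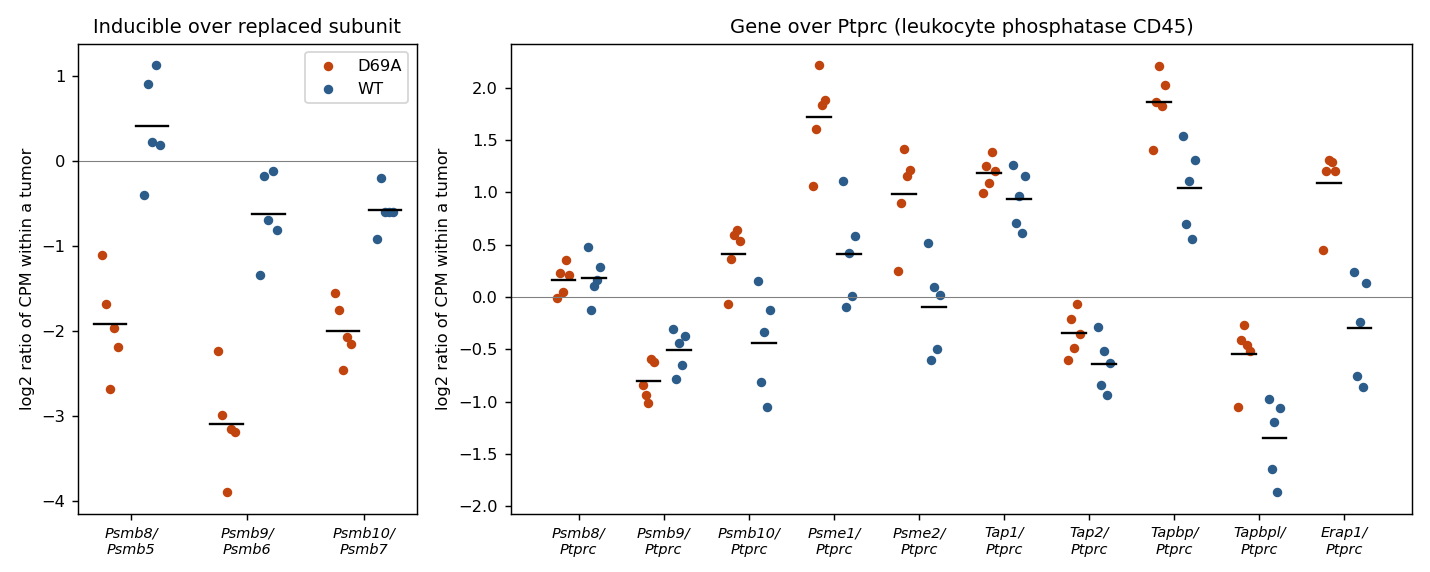
Log2 ratio of 2 genes within each tumor, with 1 point per tumor and a line at each group mean, D69A tumors left of WT tumors in each pair; left panel, inducible over replaced subunit, right panel, each of the 10 genes over Ptprc, the leukocyte phosphatase CD45. In the left panel no D69A point reaches a WT point, whereas the groups overlap for every ratio to Ptprc but that of Erap1.

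Within the inducible set the changes were unequal. The log2 ratio of Psmb9 to Psmb10 was 1.14 lower in D69A tumors (-1.21 ± 0.30, against -0.07 ± 0.32 in WT tumors), and that of Psmb8 to Psmb10 was 0.87 lower (-0.25 ± 0.23, against 0.62 ± 0.36 in WT tumors). Psmb8 and Psmb9 also differed from each other, with a log2 ratio 0.28 higher in D69A tumors. All 3 had p = 0.00794 and adjusted p = 0.0138 in the exact permutation test. The order of change was thus Psmb9, Psmb8 and Psmb10, with each neighbour in that order separated by its test.

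Psme1 and Psme2 encode the alpha and beta subunits of PA28, the cap that interferon-gamma induces. Both lie on chromosome 14 and point in opposite directions (Psme1 55578123 to 55581529, plus strand; Psme2 55587441 to 55591113, minus strand). Psme1 had 108, 88.9, 84.1, 87.2 and 83.5 CPM in D69A tumors 1 to 5, against 144, 191.5, 168, 185 and 158 CPM in WT tumors 2 to 6. D69A tumor 1 stood above the other 4, which lay within a few CPM of one another, and all 5 were below every WT tumor. The means were 90.4 ± 10.2 CPM in D69A tumors and 169 ± 19.5 CPM in WT tumors (SD over 5 tumors each; log2 fold change -0.91, SE 0.10, edgeR quasi-likelihood adjusted p = 0.000383).

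Psme2 had 61.9, 54.6, 48.2, 54.3 and 52.5 CPM in D69A tumors 1 to 5, against 94.9, 135, 133, 130 and 107 CPM in WT tumors 2 to 6. Its D69A tumors spanned only 1.28-fold, the least of the 10 genes, and did not overlap the WT tumors. The means were 54.3 ± 4.96 CPM in D69A tumors and 120 ± 18.1 CPM in WT tumors (SD over 5 tumors each; log2 fold change -1.14, SE 0.11, edgeR quasi-likelihood adjusted p = 0.000341). Psme2 is uncertain in level because reads can be shared with its intronless copy Psme2b on chromosome 11, listed at 18.9 ± 3.39 CPM in D69A tumors and 40.9 ± 8.10 CPM in WT tumors (log2 fold change -1.12, SE 0.16). Psme2 fell slightly more than Psme1, the log2 ratio of Psme1 to Psme2 being 0.23 higher in D69A tumors (exact permutation p = 0.00794, adjusted p = 0.0138).

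The other proteasome activators behaved differently. Psme3, the nuclear PA28 gamma, stood at 178 ± 10.4 CPM in D69A tumors and 184 ± 13.8 CPM in WT tumors and did not pass the test (log2 fold change -0.04, edgeR quasi-likelihood adjusted p = 0.617; 0.02 without D69A tumor 3). The log2 ratio to Psme3 was 0.86 lower in D69A tumors for Psme1 and 1.09 lower for Psme2 (exact permutation p = 0.00794 and adjusted p = 0.0138 for each). Psme4, which encodes the activator PA200, was 1.15-fold higher in D69A tumors (178 ± 14.7 CPM, against 155 ± 8.54 CPM in WT tumors; edgeR quasi-likelihood adjusted p = 0.0321). That call on Psme4 was lost in 7 of 21 alternative fits, among them those without D69A tumor 2, 4 or 5 or without WT tumor 3 or 4 (adjusted p between 0.051 and 0.0724).

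Psme1 was one of 2 of the 8 promoters with the core of the interferon-stimulated response element, searched on both strands as GAAANNGAAA. Erap1 was the other. Both stretches run from 40 bases before to 20 after the RefSeq start site (GRCm38.p6, plus strand), with the core in capitals as read on that strand, for Psme1 at chr14:55578454-55578513 and for Erap1 at chr13:74639813-74639872.
Psme1: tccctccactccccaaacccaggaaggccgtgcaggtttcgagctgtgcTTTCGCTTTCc
Erap1: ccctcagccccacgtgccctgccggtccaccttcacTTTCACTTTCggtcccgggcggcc
Of 10754 tested genes with a promoter sequence, 3.98% held these letters in at least 1 promoter. Among 11 constitutive 20S subunits with a promoter sequence, 1 did (Psmb3). Psme1 and Erap1 had the smallest fold changes of the 10 genes, but the promoters of Tap2 and Tapbpl were not searched. A link between the core and the fold change was not tested. A match is a description of the letters in this window and not a binding site.

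Tap1 and Tap2 encode the subunits of the peptide transporter, and lie beside Psmb9 and Psmb8 on chromosome 17 (Tap1 34187553 to 34197225, Tap2 34203527 to 34216321, both plus strand). Tap1 had 104, 69.8, 38.5, 63.5 and 52.2 CPM in D69A tumors 1 to 5, against 159, 335, 244, 281 and 235 CPM in WT tumors 2 to 6. Tap2 had 34.2, 25.4, 12.9, 23.2 and 17.7 CPM in D69A tumors 1 to 5, against 54.7, 114, 87.35, 96.4 and 68.2 CPM in WT tumors 2 to 6. In both genes D69A tumor 3 was the lowest of all 10 tumors, WT tumor 3 was the highest, and the groups did not overlap. Tap1 averaged 65.5 ± 24.4 CPM in D69A tumors and 251 ± 64.7 CPM in WT tumors, and was 3.83-fold lower (log2 fold change -1.94, SE 0.26, edgeR quasi-likelihood adjusted p = 0.000603, n = 5 each). Tap2 averaged 22.7 ± 8.07 CPM in D69A tumors and 84.2 ± 23.4 CPM in WT tumors, and was 3.71-fold lower (log2 fold change -1.89, SE 0.26, edgeR quasi-likelihood adjusted p = 0.000664, n = 5 each). The log2 ratio of Tap1 to Tap2 was 1.53 ± 0.07 in D69A tumors and 1.58 ± 0.12 in WT tumors, a difference of -0.06 that did not pass the exact permutation test (p = 0.492, adjusted p = 0.533).

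Tap1 and Psmb9 are read in opposite directions from one shared stretch, their RefSeq start sites lying 226 bases apart. The 225 bases between them are shown because both genes start from this stretch (RefSeq, GRCm38.p6, chr17:34187331-34187555, plus strand, on which Tap1 is read to the right and Psmb9 to the left), and no letters are in capitals because neither motif searched was in it.
Tap1-Psmb9: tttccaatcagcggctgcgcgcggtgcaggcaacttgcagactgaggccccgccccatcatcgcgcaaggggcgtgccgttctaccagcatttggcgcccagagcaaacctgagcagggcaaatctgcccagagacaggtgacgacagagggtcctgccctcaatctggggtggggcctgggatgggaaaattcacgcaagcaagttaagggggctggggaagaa
The pair did not change by the same amount: the log2 ratio of Tap1 to Psmb9 was 1.98 ± 0.16 in D69A tumors and 1.45 ± 0.12 in WT tumors, 0.54 higher in D69A tumors (exact permutation p = 0.00794, adjusted p = 0.0138). The annotated exons of Tap1 and Psmb9 overlap on opposite strands by 212 bases, which is 5.79% of the exon length of Psmb9. Whether the counting used strand is not given in the sources used here, so reads in that overlap cannot be told apart. Tap2, next to Psmb8, was also less reduced than its neighbour, with a log2 ratio of Tap2 to Psmb8 0.31 higher in D69A tumors (exact permutation p = 0.00794, adjusted p = 0.0138).

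These 4 genes sit in the MHC class II region. Of 11 tested genes with spans within 100 kb of Psmb9, 10 were lower in D69A tumors, those 4 among them. The others include H2-Ab1, a class II chain (91.6 ± 51.5 CPM in D69A tumors, 565 ± 250 CPM in WT tumors; log2 fold change -2.62), and the class II loading genes H2-DMa (-2.31), H2-DMb2 (-2.31), H2-DMb1 (-1.55), H2-Oa (-2.54) and H2-Ob (-2.88). Brd2, a ubiquitous chromatin reader whose gene overlaps the span of H2-DMa, did not pass the test. Brd2 had 254 ± 12.9 CPM in D69A tumors and 260 ± 13.4 CPM in WT tumors (log2 fold change -0.03, SE 0.05, edgeR quasi-likelihood adjusted p = 0.643).

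**Figure D3:**
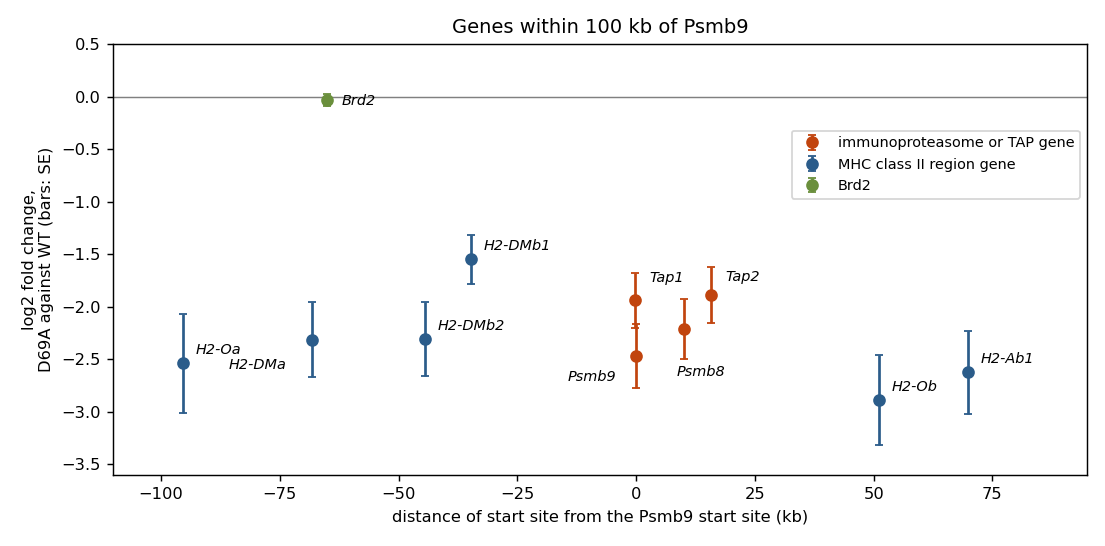
Log2 fold change (D69A against WT) with its SE for the 11 tested genes within 100 kb of Psmb9, against distance from Psmb9 in kb. Distance is taken between the outermost annotated starts of the genes (GENCODE vM21). On this scale Tap1 lies at -0.2 kb, left of Psmb9, whereas its RefSeq start site lies to the right of that of Psmb9. Psmb9, Tap1, Psmb8 and Tap2 lie between -2.47 and -1.89, the class II genes between -2.88 and -1.55, and Brd2 at -0.03.

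Tapbp encodes tapasin, which bridges TAP and the empty class I molecule, and Tapbpl encodes TAPBPR, a relative that edits peptides outside that complex. Tapbp lies on chromosome 17 (33915899 to 33929292, plus strand) and Tapbpl on chromosome 6 (125223933 to 125231860, minus strand). Tapbp had 138, 106.5, 83.6, 86.7 and 92.0 CPM in D69A tumors 1 to 5, against 193.5, 333, 269, 271.5 and 261 CPM in WT tumors 2 to 6. Tapbpl had 25.1, 22.0, 15.0, 17.75 and 15.8 CPM in D69A tumors 1 to 5, against 33.8, 65.7, 54.4, 50.55 and 50.6 CPM in WT tumors 2 to 6. In both genes D69A tumor 1 came nearest to the WT tumors and WT tumor 2 nearest to the D69A tumors, without overlap.

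Tapbp averaged 101 ± 22.2 CPM in D69A tumors and 265.5 ± 49.6 CPM in WT tumors, 2.62-fold lower (log2 fold change -1.39, SE 0.16, edgeR quasi-likelihood adjusted p = 0.000447, n = 5 each). Tapbpl averaged 19.1 ± 4.31 CPM in D69A tumors and 51.0 ± 11.4 CPM in WT tumors, 2.66-fold lower (log2 fold change -1.41, SE 0.19, edgeR quasi-likelihood adjusted p = 0.000546, n = 5 each). Their log2 ratio was 2.40 ± 0.12 in D69A tumors and 2.39 ± 0.08 in WT tumors, a difference of 0.01 that did not pass and had no stable sign when 1 tumor was left out, from -0.02 to 0.05 (exact permutation p = 0.857, adjusted p = 0.881). Tap1 was more reduced than Tapbp, with a log2 ratio 0.58 lower in D69A tumors (exact permutation p = 0.00794, adjusted p = 0.0138).

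The general chaperones of the loading complex did not follow. Canx, the glycoprotein chaperone calnexin, was 1.21-fold higher in D69A tumors (952 ± 19.1 CPM, against 784 ± 60.2 CPM in WT tumors; edgeR quasi-likelihood adjusted p = 0.00351). Calr (calreticulin; log2 fold change -0.09) and Pdia3 (the disulfide isomerase ERp57; 0.04) did not pass. The log2 ratio of Tapbp to Calr was 1.31 lower in D69A tumors (-3.32 ± 0.24, against -2.01 ± 0.31 in WT tumors; exact permutation p = 0.00794, adjusted p = 0.0138). The class I chains that receive the peptides were lower for 3 of 3 genes, H2-K1 by a log2 fold change of -2.52, H2-D1 by -1.63 and B2m by -1.14. H2-K1 and H2-D1 belong to a family of close copies, and their counts are uncertain where reads fit several members.

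Erap1 encodes the aminopeptidase that trims peptides to fit the class I groove (chromosome 13, 74639568 to 74693201, plus strand). Its level was 71.1, 67.7, 45.0, 59.4 and 52.2 CPM in D69A tumors 1 to 5, against 78.6, 122, 106, 102 and 116 CPM in WT tumors 2 to 6. This was the narrowest separation of the 10 genes, with the lowest WT tumor 1.11 times the highest D69A tumor. Erap1 averaged 59.1 ± 10.8 CPM in D69A tumors and 105 ± 16.6 CPM in WT tumors (SD, n = 5 each), 1.77-fold lower (log2 fold change -0.83, SE 0.14, edgeR quasi-likelihood adjusted p = 0.00136). Tested against a fold of 1.5 in place of no change, Erap1 did not pass (edgeR adjusted p = 0.108), while the other 9 genes did. Of its exon length 11.5% overlaps Cast on the opposite strand. Larger shares on the opposite strand were those of Tapbp (24.9%, Gm19412), Psmb8 (14.7%, Gm20496), Tap2 (14.1%, Gm15821) and Psmb7 (11.8%, Nek6). Psmb5 overlaps Mir686 on its own strand (12.1%). Cast and Nek6 are in the count table, and Gm19412, Gm20496, Gm15821 and Mir686 are not.

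Other peptidases that trim or destroy such peptides showed small differences. Of 6 tested, Lap3 was lower (log2 fold change -0.21, edgeR quasi-likelihood adjusted p = 0.016), Blmh was higher (0.26, adjusted p = 0.0143), and 4, among them Lnpep, did not pass. Lap3 lost its call without D69A tumor 3 or WT tumor 3 (adjusted p between 0.0518 and 0.0638). The log2 ratio of Erap1 to Lnpep, an aminopeptidase of the same family in endosomes, was 0.89 lower in D69A tumors (-1.43 ± 0.34, against -0.54 ± 0.19 in WT tumors; exact permutation p = 0.00794, adjusted p = 0.0138).

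**Figure D4:**
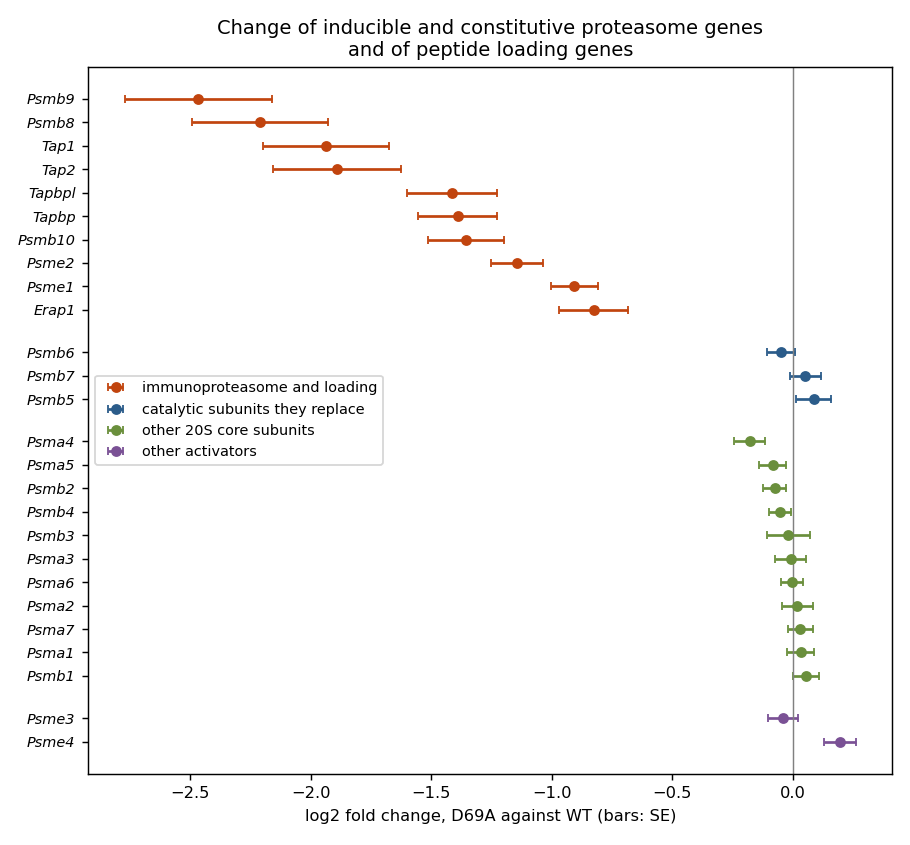
Log2 fold change (D69A against WT) for the 10 genes, the catalytic subunits that the inducible ones replace, the other 20S core subunits and the other activators, with 1 point per gene and bars for the SE. The 10 genes lie between -2.47 and -0.83, and the 3 replaced catalytic subunits between -0.05 and 0.09.

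The rest of the proteasome stood near 0. Among the 14 constitutive 20S subunits 1 was lower and 0 were higher, with a median log2 fold change of -0.01 and a range of -0.18 to 0.09. The 1 was the alpha-ring subunit Psma4 (-0.18, edgeR quasi-likelihood adjusted p = 0.0398), which kept its call in 8 of 21 alternative fits, and of the fits leaving out 1 tumor only in those without D69A tumor 4 or WT tumor 2 (adjusted p of 0.0681 to 0.179 in the others). Among 18 subunits of the 19S regulator, Psmd8 was lower (-0.28, adjusted p = 0.0188) and 0 were higher, with a median of 0.02, and Psmd8 lost its call without WT tumor 3 or 5 (adjusted p of 0.051 to 0.0538). Among 5 assembly chaperones, Pomp was lower (-0.15, adjusted p = 0.0353), a call kept in 9 of 21 alternative fits and lost without any 1 of the D69A tumors or without WT tumor 4 or 5 (adjusted p of 0.0603 to 0.161). Pomp is the factor that matures the inducible particle as well as the constitutive one.

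Regulators of the interferon response and of class I genes were lower in part, and their control of the 10 genes in these tumors was not tested. Of 17 interferon and class I regulators 11 were lower, 0 were higher and 6 did not pass, with a median log2 fold change of -0.80. Ifng, the gene for interferon-gamma, was scarce in both groups, at 0.454, 0.362, 0.150, 0.740 and 0.163 CPM in D69A tumors 1 to 5 and 0.853, 3.25, 1.99, 2.22 and 2.10 CPM in WT tumors 2 to 6. No D69A tumor reached the lowest WT tumor, and the log2 fold change of Ifng was -2.47 (SE 0.48, edgeR quasi-likelihood adjusted p = 0.00219). Before scaling by the trimmed mean of M values, 3 counts correspond to 0.0798 to 0.116 CPM, so the lowest D69A values of Ifng rest on few reads.

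Irf1, an early target that in turn acts on Psmb9, Tap1 and class I promoters, averaged 51.8 ± 11.3 CPM in D69A tumors and 171 ± 43.6 CPM in WT tumors (log2 fold change -1.73). Nlrc5, the class I transactivator, averaged 21.6 ± 7.09 CPM in D69A tumors and 85.3 ± 28.0 CPM in WT tumors (-1.98). For both genes, as for the 10, every D69A tumor lay below every WT tumor. Stat2 (-1.97), Irf8 (-2.54), Irf9 (-1.39), Ifngr1 (-0.87), Jak2 (-0.80), Irf2 (-0.78) and Rela (-0.29) were among the others that were lower. Ifngr2, Jak1, Nfkb1 and the Rfx5, Rfxap and Rfxank genes of the class I and II enhanceosome did not pass.

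The 10 genes mostly shared the same highest and lowest tumor within each group. How many other genes shared them was not counted. D69A tumor 1 was the highest of its group for 10 of 10 genes, and D69A tumor 3 the lowest for 9, Psme1 being the exception. WT tumor 2 was the lowest of its group for 10 of 10 genes, and WT tumor 3 the highest for 9, Psmb8 being the exception. On average over the 10 genes, D69A tumor 1 stood 0.51 above its group mean on the log2 scale and D69A tumor 3 stood at -0.46, while WT tumor 2 stood at -0.49 and WT tumor 3 at 0.34. Ptprc (CD45), which marks all leukocytes, was displaced in the same direction in these tumors, by 0.93 and -0.59 in D69A tumors 1 and 3 and by -0.93 and 0.69 in WT tumors 2 and 3.

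Ptprc itself averaged 29.3 ± 13.3 CPM in D69A tumors and 137 ± 57.0 CPM in WT tumors (log2 fold change -2.23, SE 0.35). Relative to Ptprc the 10 genes divided, a division that depends on the reference gene chosen. The 5 leukocyte markers had log2 fold changes from -2.23 (Ptprc) to -1.85 (Itgb2), and ratios to the others were not tested. The log2 ratio to Ptprc did not pass the exact permutation test for Psmb8 (difference -0.02, and -0.09 to 0.06 when 1 tumor was left out, adjusted p = 0.881), Psmb9 (-0.29, adjusted p = 0.0688), Tap1 (0.24, adjusted p = 0.161) and Tap2 (0.30, adjusted p = 0.113), the 4 genes of the class II region. It was higher in D69A tumors for Tapbpl (0.81), Tapbp (0.82), Psmb10 (0.85), Psme2 (1.08) and Psme1 (1.31), each with overlapping groups and exact permutation p = 0.0159 (adjusted p = 0.0206). For Erap1 it was higher by 1.39 with no overlap (exact permutation p = 0.00794, adjusted p = 0.0138). A ratio that missed the threshold does not show that a gene and Ptprc changed alike, and without WT tumor 2 the ratio of Tap2 to Ptprc passed (0.39, adjusted p = 0.0393).

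As FPKM (CPM divided by merged exon length in kilobases), the levels of the 10 genes spanned a wide range. Psme1 was first in both groups on this scale (40.9 ± 4.63 FPKM in D69A tumors, 76.7 ± 8.83 FPKM in WT tumors). Psme2 had 30.8 ± 2.81 FPKM in D69A tumors and 68.0 ± 10.2 FPKM in WT tumors, and Tapbp had 27.9 ± 6.13 FPKM in D69A tumors and 73.2 ± 13.7 FPKM in WT tumors. The order of Psme1, Psme2 and Tapbp in WT tumors lies within the SDs. Psmb10 (21.8 ± 4.84 FPKM in D69A tumors, 55.7 ± 9.18 FPKM in WT tumors), Tap1 (12.0 ± 4.46 FPKM in D69A tumors, 45.8 ± 11.8 FPKM in WT tumors) and Psmb8 (9.58 ± 3.63 FPKM in D69A tumors, 44.4 ± 13.7 FPKM in WT tumors) came next, Tap1 and Psmb8 within their SDs of each other.

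The lowest 4 on that scale were Tapbpl (8.14 ± 1.83 FPKM in D69A tumors, 21.7 ± 4.86 FPKM in WT tumors), Erap1 (8.12 ± 1.48 FPKM in D69A tumors, 14.4 ± 2.28 FPKM in WT tumors), Tap2 (6.00 ± 2.14 FPKM in D69A tumors, 22.3 ± 6.18 FPKM in WT tumors) and Psmb9 (4.59 ± 2.01 FPKM in D69A tumors, 25.4 ± 7.44 FPKM in WT tumors). In rank of 10, Psmb9 was number 10 in D69A tumors and number 7 in WT tumors, and Erap1 was number 8 in D69A tumors and number 10 in WT tumors. Differences among Tapbpl, Tap2 and Psmb9 in WT tumors were within their SDs. With the longest transcript as length the first 3 and the last 4 held the same genes in each group, but Psme2 was first in both (56.4 FPKM in D69A tumors, 125 FPKM in WT tumors), ahead of Psme1 (45.5 FPKM in D69A tumors, 85.3 FPKM in WT tumors). The level of Psmb9 moved with this choice too, to 12.4 FPKM in D69A tumors and 68.8 FPKM in WT tumors with the principal transcript, a length at hand for 8 of the 10 genes.

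Outside the 10, the genes whose profile over the 10 tumors lay nearest to their mean profile were sought by the root mean square difference of centred log2 CPM. The nearest were H2-D1 (0.089 log2 units), Helz2 (0.103), Parp10 (0.108), Kcnn4 (0.109), Irf1 (0.111), Tor3a (0.111), Herc6 (0.116), H2-T22 (0.130), Samhd1 (0.135) and H2-Q1 (0.139). Among the 10 themselves Tapbpl (0.126), Tapbp (0.134) and Psmb10 (0.142) lay nearest to the mean profile and Psmb9 (0.514) and Erap1 (0.391) farthest. Of genes outside the 10, 7 lay nearer to it than Tapbpl, 643 nearer than Erap1 and 1400 nearer than Psmb9. H2-D1 is a class I heavy chain, H2-T22 and H2-Q1 are class I-like genes whose counts may share reads with H2-D1, Irf1 is the transcription factor named above, and Kcnn4 encodes a calcium-activated potassium channel. The likeness rests on 10 tumors, 5 in each group, and each profile includes the difference between the groups.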

How the data were processed

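Read counts per Ensembl gene for the 10 tumors were taken as deposited by the authors and were whole numbers. Per the submitters' processing notes the genome build was mm10 and the tools included fastp, HISAT, Bowtie and RSEM. What each tool was used for, its version, the gene annotation and whether strand was used: not given in the sources used here. All 10 columns matched a label. Of 17737 genes, 17670 matched a symbol in GENCODE vM21 and 40 had 0 counts throughout. Totals were 25904345 to 37578722 counts per tumor, and 3 counts equal 0.0798 to 0.116 CPM of these unscaled totals.

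D69A tumors were compared with WT tumors over all genes with edgeR 4.0.16 (R 4.3.3): filterByExpr, trimmed mean of M values, glmQLFit and glmQLFTest, p-values adjusted by Benjamini-Hochberg over 13798 genes, a threshold of 0.05, no covariate. CPM values use these scaled library sizes. Standard errors were derived from the F statistic. Log2 ratios of 2 genes within a tumor (prior count 2) were compared by two-sided exact permutation tests (scipy 1.17.1), adjusted over 26 ratios. Levels of different genes were compared per length of merged exons, and again with the longest or the principal transcript as length. Summed marker levels are in CPM and were not scaled by length. Promoter letters, 250 bases before to 50 after a start, came from RefSeq (GRCm38.p6) and were at hand for 8 of the 10 genes, those of Tap2 and Tapbpl not being used here. Every pair of tumors within a group differed by more than counting noise. The alternatives were DESeq2 1.42.0, limma-voom (limma 3.58.1), other scalings and filters, a test against a fold of 1.5, a replicate block, leaving out each tumor, leaving out the 3 tumors highest in muscle markers, other prior counts and other gene lengths; the principal transcript length and the fit on tumors 2 to 5 without the block were added after seeing the data. The code was tested on simulated data.

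The 10 genes and all lists were chosen with earlier results of these data known, so counts over a list are descriptions and no list was tested as a set. Genes named are the 10, their constitutive counterparts, Ifng, Irf1 and Nlrc5, genes of each list with the smallest p-values or called against the list's direction, the 10 genes nearest in profile, and the tested genes within 100 kb of Psmb9. Il18, Psme2b and the remaining regulators and markers were named beyond that rule, after their values were seen. Some genes of these lists are counted but not reported by name here.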

Additional observations from a re-analysis of the deposited data

Results flagged for a closer look

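Of 92 groups of 5 tumors examined, 5 (5.43%) held a tumor whose gap to its nearest neighbour, divided by the group's range, passed 0.71; chance alone gives about 1 in 20. D69A tumor 1 stood apart for Psme1 at 108.3 CPM, with the next D69A tumor at 88.9 CPM and the lowest at 83.5 CPM. The same tumor stood apart in the log2 ratio of Psme1 to Psme3 (-0.847, next -0.994) and in that of Erap1 to Ptprc (0.45, next 1.20). WT tumor 6, the library with the fewest counts, stood apart in the log2 ratio of Tap1 to Tap2 (1.786, next 1.55). WT tumor 5 stood apart in the log2 ratio of Erap1 to Lnpep (-0.858, next -0.53).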

How the results depend on the processing

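The log2 fold changes of the 10 genes kept direction and call in 209 of 210 combinations of gene and alternative. The exception was Erap1 tested against a fold of 1.5 (-0.83, adjusted p = 0.108), which left 9 of 10 called. Leaving out 1 tumor at a time gave -2.74 to -2.26 for Psmb9 and -0.91 to -0.70 for Erap1. Over all genes, the test against a fold of 1.5 called 1800 lower and 60 higher in D69A tumors, and leaving out D69A tumor 1, WT tumor 3 and WT tumor 4, the highest in muscle markers, called 1727 higher; the full test called 3410 lower and 2594 higher. Of 312 combinations of gene ratio and tested alternative, 311 kept their side of the threshold, the exception being Tap2 over Ptprc. The sign turned in 7 of the 312, all in differences near 0 that passed in no fit: Tapbp over Tapbpl (-0.019 to 0.047 leaving out 1 tumor at a time) and Psmb8 over Ptprc (-0.094 to 0.058). The log2 fold change of Psme3, not called either, ran from -0.095 to 0.02 over 21 alternatives, and from -0.061 to 0.02 leaving out 1 tumor at a time. The ratios had no test without the 3 muscle-marker tumors or in 4 pairs, since those designs allow no p below 0.0571 or 0.125. There, 3 of 52 differences turned in sign: Tapbp over Tapbpl (-0.043 without those tumors, -0.005 in pairs) and Psmb8 over Ptprc (0.054 in pairs).

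Tumors 2 to 5 share numbers between groups. Deviations of same-numbered tumors from their group means correlated at 0.177, -0.417, 0.203 and 0.167, in order of number. Of these 4 tumors, 2 correlated best with their own number. These values do not settle whether the numbers mark pairs, and the main test did not use the numbers. With the replicate block, 3186 genes were lower, 2433 were higher and all 10 genes kept their calls; without it the same tumors gave 3518 lower and 2847 higher.

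Calls on small fold changes were lost in 13 of 21 alternatives for Psma4, 12 for Pomp, 7 for Psme4, and 6 each for Psmd8 and Lap3. Depth did not limit the 10 genes, whose lowest count was 297 (Psmb9, D69A tumor 3). Per-length levels moved with the length chosen, for Psmb8 in D69A tumors from 9.58 FPKM (merged exons) to 17.0 (longest transcript) and 19.9 (principal transcript).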
